A study of Mus musculus with 8 samples.

Results

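The 10 genes described here are Hif1a, which encodes the oxygen-regulated subunit of the hypoxia-inducible factor HIF-1, and 9 genes of glucose use: Slc2a1, Pfkl, Aldoa, Tpi1, Gapdh, Pgk1, Eno1, Ldha and Pdk1. They were chosen by name, and 9 of the 10 had a row among the 10720 genes of the table. Eno1, which encodes the enolase of most tissues, had none. Its near-identical copy Eno1b did have a row and could hold reads of Eno1, so its value is uncertain and is given only as that of Eno1b.

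Messenger RNA was measured in single hematopoietic stem cells (HSCs) from bone marrow of adult C57BL/6 mice, sorted as LSK cells, which lack lineage markers and carry Sca1 and c-Kit, with the further surface markers CD150+CD34-CD48-. WT cells carry the genotype label wild type, and KO cells the label Med23-/-. In the study's methods, knockout mice carried floxed Med23 alleles and the Mx1-cre transgene, whose promoter responds to interferon and to the interferon inducer poly(I:C) in blood cells and in other tissues, and controls were Med23 L/L littermates without the transgene. The study describes both genotypes as sampled after poly(I:C) for its blood counts and does not say so separately for the single-cell libraries. Each genotype had 4 libraries, but the column of a cell names its genotype and not its library. Each genotype is therefore 1 pool without a replicate, and animals and libraries cannot be told apart from genotype.

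HIF-1 is a pair of a stable subunit, Arnt, and an alpha subunit that is hydroxylated by oxygen-dependent prolyl hydroxylases, bound by the Vhl protein and degraded while oxygen is plentiful. Much of its control is thus on the protein, which messenger RNA counts do not show. HIF-1 binds short DNA elements with the core ACGTG or GCGTG and is known for raising the transcription of glucose transporters, glycolytic enzymes and pyruvate dehydrogenase kinase, and HSCs of adult marrow are known for relying more on glycolysis than their progeny do.

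To show those elements in the genes described here, the 250 bases before each annotated transcription start were searched for ACGTG and GCGTG on both strands. Of 13 such windows of the 9 genes with a row, 6 held ACGTG, 5 held GCGTG and 10 held either. Among all 32851 promoter windows of the annotation, the shares were 16.6%, 28.2% and 38.6%, respectively. Genes with several starts gave several windows, and these are not independent. The Aldoa windows chr7:126799255-126799504 and chr7:126799179-126799428 overlap, and each held 1 ACGTG. Neither motif was in the window of Tpi1 or in 1 window each of Aldoa and Pdk1. A match is a description of letters and does not show binding. The windows below are the Ldha window with the most matches, that of Pgk1, and that of Ldhb, the paralog that shares the lactate dehydrogenase reaction with Ldha. They come from RefSeq's GRCm38.p6 annotation, run 5′ to 3′ on the strand of the gene, and end at the base before the start. Capitals mark matches of either motif on either strand, and CACGTG is ACGTG on both strands at once.
Ldha, chr7:46845554-46845803, plus strand: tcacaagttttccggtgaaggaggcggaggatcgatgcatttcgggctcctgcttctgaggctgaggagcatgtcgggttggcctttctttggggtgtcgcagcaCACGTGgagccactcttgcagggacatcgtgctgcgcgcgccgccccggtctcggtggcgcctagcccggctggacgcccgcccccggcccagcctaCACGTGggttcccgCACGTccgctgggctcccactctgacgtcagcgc
Pgk1, chrX:106186850-106187099, plus strand: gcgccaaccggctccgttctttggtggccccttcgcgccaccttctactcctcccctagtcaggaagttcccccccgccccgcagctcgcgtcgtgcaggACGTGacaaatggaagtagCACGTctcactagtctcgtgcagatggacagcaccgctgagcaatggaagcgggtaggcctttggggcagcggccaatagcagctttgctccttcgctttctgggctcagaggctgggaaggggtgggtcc
Ldhb, chr6:142507958-142508207, minus strand: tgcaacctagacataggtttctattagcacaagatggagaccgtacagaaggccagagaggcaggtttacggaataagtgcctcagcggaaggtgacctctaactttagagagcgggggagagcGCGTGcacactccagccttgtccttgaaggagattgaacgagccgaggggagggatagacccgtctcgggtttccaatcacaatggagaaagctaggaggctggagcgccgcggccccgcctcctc
The Ldha window shown held 5 matches of ACGTG, with each CACGTG counted on both strands, and the Pgk1 window 2. The Ldhb window held no ACGTG and 1 GCGTG. The same was true of the other Ldha window, chr7:46846832-46847081, which is not shown.

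Transcripts were counted by unique molecular identifiers (UMIs), tags that mark each captured molecule, so that 1 UMI is 1 molecule. UMIs were summed over the cells of a pool that had at least 2000 detected genes and 20000 UMIs, 259 of 304 cells labelled WT and 234 of 282 labelled KO. The kept cells held 21475782 and 16180546 UMIs, with medians of 59649 and 50281 per cell. Levels are UMIs of a gene per 1000000 UMIs of a pool (CPM), and because each molecule is counted at its 3′ end they do not grow with transcript length. The 95% intervals cover counting error only. All 12 HSC markers of a fixed list were in the table, and their summed level was 1523 CPM in the WT pool and 1483 CPM in the KO pool. Single markers differed more than the sum: 3 of the 12 were at least 1.5-fold higher and 2 at least 1.5-fold lower in KO. Their log2 ratios ran from -2.26 to 1.14. Slamf1 had 837 UMIs in WT and 132 in KO, and Mecom had 707 and 1170. Of the 9325 genes tested, a set defined below, 15.6% were at least 1.5-fold higher in KO and 12.5% at least 1.5-fold lower. With only 12 markers, their counts cannot be told apart from these shares.

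Med23 itself, the gene whose deletion defines the groups, had 122 UMIs (5.68 CPM) in the pool labelled WT and 117 UMIs (7.23 CPM) in the pool labelled KO. Its log2 ratio of KO over WT was 0.35 (-0.03 to 0.73), and it ran from -0.40 to 0.34 over alternative ways of pooling. The interval held no difference, so the count does not show the loss that the label KO names. It checks little: UMIs lie near the 3′ end, the deleted exon is not given in the sources used here, and 28 of the KO UMIs came from 1 cell. Without the top cell the Med23 ratio was -0.04. A Med23 UMI was found in 18.1% of WT and 11.5% of KO cells, whose depths differ. The study itself reports efficient deletion of Med23 after poly(I:C). Directions below are therefore those of the pools labelled KO and WT.

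The WT pool also held transcripts of another cell type. A list of 24 oocyte genes, among them the egg coat gene Zp3, summed to 2672 CPM in the WT pool and 132 CPM in the KO pool. Over 1000 CPM of them were found in 68 WT cells (26.3%) and 2 KO cells (0.855%), called oocyte-transcript cells here. They were unevenly spread over the cell numbers of the WT columns: 57 of the 72 kept cells numbered from 225 to 304 were over the limit, and 11 of the other 187. Whether that run of cells is a library of its own cannot be told from the columns. For lists of other cell types, the summed level in WT and KO was 335 and 574 CPM for 3 of 10 granulocyte-macrophage markers in the table, 978 and 1098 CPM for 8 of 8 megakaryocyte markers, 43.1 and 87.9 CPM for 4 of 10 erythroid markers, 68.3 and 113 CPM for 2 of 12 lymphoid markers, 23.6 and 11.4 CPM for 2 of 7 neutrophil markers, and 81.8 and 102 CPM for 6 of 9 stroma and endothelium markers. Some sums hide members that differ. Of the 4 erythroid markers 2 were at least 1.5-fold lower and 2 at least 1.5-fold higher, with a median log2 ratio of -0.52. Car1 had 3 UMIs in WT and 989 in KO, 955 of them in 1 cell. Of the 6 stroma and endothelium markers 4 were at least 1.5-fold lower and 2 at least 1.5-fold higher, with a median of -1.84. Without oocyte-transcript cells 2 of these markers were lower and 3 higher, and their median was 0.35. The megakaryocyte sum turned to 1157 and 1099 CPM without oocyte-transcript cells. Results for the glycolysis genes are given with all kept cells and again without oocyte-transcript cells. Leaving those cells out did not remove the oocyte transcripts. Their sum was then 250 CPM in WT and 128 CPM in KO, and 22 of the 24 genes were still at least 1.5-fold lower in KO, with 1 at least 1.5-fold higher. Zp3 was then at 25.2 CPM in WT and 7.01 CPM in KO.

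The glycolysis genes were close to level between the pools. None of the 9 genes differed by 1.5-fold in either direction, against 15.6% of the 9325 genes tested, those averaging 0.5 UMI or more per kept cell, that were at least 1.5-fold higher in KO and 12.5% that were at least 1.5-fold lower. Together they made 74407 UMIs in WT and 56941 in KO, or 3465 and 3519 CPM, which is 0.346% and 0.352% of all UMIs. The log2 ratio of the sums was 0.02 (0.0067 to 0.038). The median log2 ratio of the 9 genes was 0.16, beside 0.03 for all genes tested. Their median distance from 0 was 0.22, and that of all genes tested was 0.33. These comparisons are weak, because 9 genes are few and were not matched for level. They averaged from 1.92 (Slc2a1) to 100.5 (Gapdh) UMIs per kept cell. The genes tested include sparser ones, whose ratios scatter more by counting. Without oocyte-transcript cells the sums were 3586 and 3521 CPM, the log2 ratio turned to -0.03 (-0.04 to -0.0099), and the median fell to 0.05, beside 0.04 for all genes. Without the WT cells numbered from 225 on, the log2 ratio of the sums was -0.05 and the median -0.04. In cells thinned to 20000 UMIs, a random draw that gives every cell the same weight, the median was -0.01. The sign of the small difference therefore changed with the way of pooling.

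**Figure D1:**
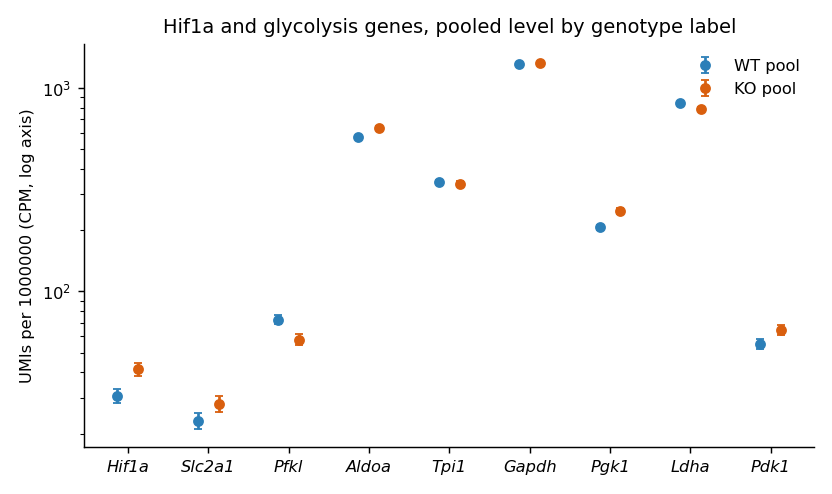
Pooled level of the 9 genes with a row, in CPM on a log axis, in the WT pool (blue, 259 cells) and the KO pool (orange, 234 cells). Bars are exact 95% Poisson intervals, which cover counting error only. Gapdh stands highest in both pools at about the same level, and Hif1a and Slc2a1 stand lowest, between 23.1 and 41.4 CPM.

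Levels differed far more between genes than between pools. Gapdh, the glyceraldehyde-3-phosphate dehydrogenase, gave 37.96% of the UMIs of these genes in WT and 37.4% in KO and ranked 108th and 106th of all 10720 genes. Ldha followed at rank 145 and 163. The order then ran through Aldoa, Tpi1 and Pgk1 in both pools, and each of these neighbours was separated from the next by its counting interval. Pfkl stood above Pdk1 in WT. In KO Pdk1 stood above Pfkl, but their intervals overlapped. Hif1a came next, at rank 4881 in WT and 4071 in KO, and Slc2a1 was the lowest, at rank 5739 and 5303.

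Of the 9 counting intervals of the KO over WT ratio, 5 lay above 1, 2 lay below 1 and 2 held 1. Among all genes tested, 40.3% lay above 1 and 35.1% below. Without oocyte-transcript cells, 3 of the 9 lay above 1, 3 below and 3 held it, and in thinned cells the counts were 3, 2 and 4. The background shares were 40.5% above and 34% below without those cells, and 27.6% and 25% in thinned cells.

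**Figure D2:**
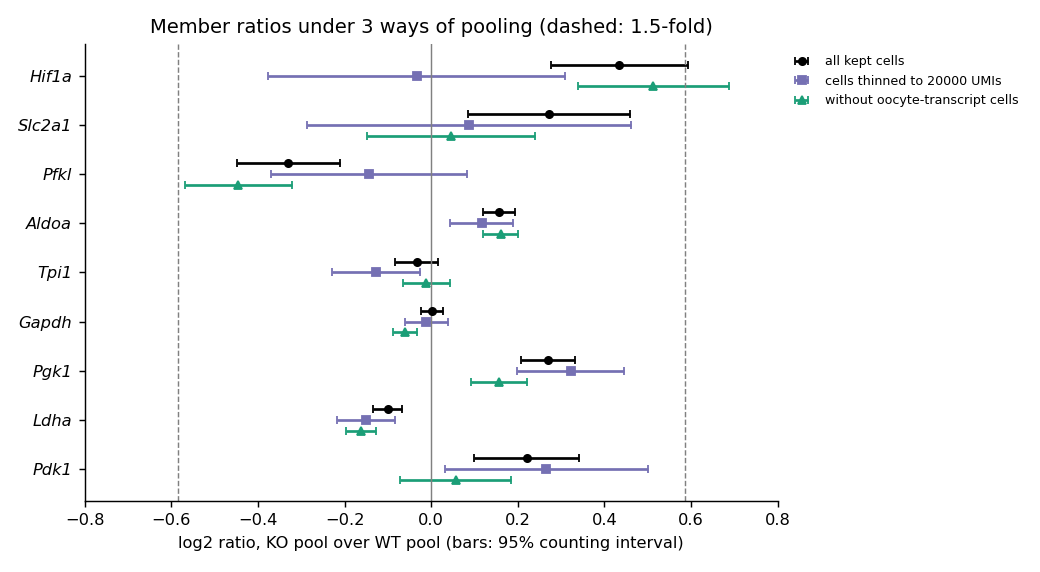
Log2 ratio of the KO pool over the WT pool for each gene, with all kept cells (black circles), with cells thinned to 20000 UMIs (purple squares) and without oocyte-transcript cells (green triangles). Bars are 95% counting intervals, and dashed lines mark 1.5-fold. The points lie inside the dashed lines for every gene under all 3 settings, and Hif1a moves from 0.43 with all cells to -0.03 in thinned cells.

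Hif1a, the regulator of the group, was the gene with the largest ratio. It had 658 UMIs in WT (30.6 CPM) and 670 in KO (41.4 CPM), a log2 ratio of 0.43 (0.28 to 0.59). That difference changed with the weight of deep cells. The highest cell, in the KO pool, held 94 UMIs, and without the top cell the ratio was 0.24. In thinned cells there were 154 UMIs in WT and 136 in KO, and the log2 ratio was -0.03 (-0.38 to 0.31). Without oocyte-transcript cells it was 0.51 (0.34 to 0.69). At equal depth, a Hif1a UMI was found in 18.9% of WT cells and 18.8% of KO cells.

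Slc2a1, the glucose transporter GLUT1 that brings glucose into the cell, had 497 UMIs in WT (23.1 CPM) and 452 in KO (27.9 CPM), a log2 ratio of 0.27 (0.08 to 0.46). Its level was 26.9 CPM in the other WT cells but 12.3 CPM in WT oocyte-transcript cells. Without the latter the ratio was 0.05 (-0.15 to 0.24), and without the WT cells numbered from 225 on it was -0.04 (-0.23 to 0.16). In thinned cells the Slc2a1 ratio was 0.09 (-0.29 to 0.46). Pdk1, the kinase that phosphorylates pyruvate dehydrogenase and so holds pyruvate back from the mitochondrion, was alike in part. It had 1189 UMIs in WT (55.4 CPM) and 1044 in KO (64.5 CPM), with a log2 ratio of 0.22 (0.10 to 0.34). In thinned cells the Pdk1 ratio stayed at 0.27 (0.03 to 0.50), and without the WT cells numbered from 225 on it was 0.10 (-0.03 to 0.24). The Pdk1 ratio was 0.06 (-0.07 to 0.18) without oocyte-transcript cells, in which Pdk1 stood at 38.6 CPM against 61.2 CPM in the other WT cells.

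Pfkl, the liver-type subunit of phosphofructokinase, which catalyses the committed step of glycolysis, was the lowest in the KO pool relative to WT. It had 1561 UMIs in WT (72.7 CPM) and 936 in KO (57.8 CPM), a log2 ratio of -0.33 (-0.45 to -0.21), and a ratio of -0.44 (-0.57 to -0.32) without oocyte-transcript cells. In thinned cells its ratio was -0.14 (-0.37 to 0.08). The sign held in every alternative, and the size did not.

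Aldoa, the aldolase that splits fructose-1,6-bisphosphate, had 12286 UMIs in WT (572 CPM) and 10317 in KO (638 CPM). Its log2 ratio was 0.16 (0.12 to 0.19), and it was also 0.16 without oocyte-transcript cells. Tpi1, the isomerase of the 3-carbon sugars made by aldolase, had 7427 UMIs in WT (346 CPM) and 5466 in KO (338 CPM). The log2 ratio of Tpi1 was -0.03 (-0.08 to 0.02), and in thinned cells it was -0.13 (-0.23 to -0.03). These enzymes act in succession, and their ratios lay on either side of 0.

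Gapdh had 28244 UMIs in WT (1315 CPM) and 21307 in KO (1317 CPM), a log2 ratio of 0.00 (-0.02 to 0.03) that became -0.06 (-0.09 to -0.03) without oocyte-transcript cells. Mouse Gapdh has many processed copies in the genome, so its count is uncertain where reads could be shared. Pgk1, the kinase that makes the first ATP of the payoff phase, had 4421 UMIs in WT (206 CPM) and 4015 in KO (248 CPM). Its log2 ratio was 0.27 (0.21 to 0.33) with all cells, 0.32 (0.20 to 0.45) in thinned cells and 0.16 (0.09 to 0.22) without oocyte-transcript cells. Pgk1 and Aldoa were the genes whose interval stayed above 1 in all 3 of these settings.

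Ldha, the lactate dehydrogenase subunit that favours reduction of pyruvate to lactate, had 18124 UMIs in WT (844 CPM) and 12734 in KO (787 CPM). Its log2 ratio was -0.10 (-0.13 to -0.07) with all cells, -0.15 (-0.22 to -0.08) in thinned cells and -0.16 (-0.20 to -0.13) without oocyte-transcript cells. Ldha was thus the gene whose interval stayed below 1 in all 3 settings, by a small amount. Eno1b had 342 UMIs in WT (15.9 CPM) and 176 in KO (10.9 CPM), a log2 ratio of -0.55 (-0.82 to -0.28). The Eno1b ratio was past 1.5-fold without oocyte-transcript cells, at -0.73 (-1.01 to -0.45), and in thinned cells, at -0.73 (-1.30 to -0.18). Without its top cell it was -0.32.

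Detection was compared after each kept cell was thinned to 20000 UMIs. A Gapdh UMI was found in 257 of 259 WT cells (99.2%) and 234 of 234 KO cells (100%), Ldha in 99.2% and 98.3%, Aldoa in 98.1% and 97.4%, and Tpi1 in 92.7% and 91.0%. The enzymes of the lower range were found in fewer cells: Pgk1 in 78.8% and 79.5%, Pfkl in 56.0% (exact binomial interval 49.7 to 62.1) and 46.6% (40.1 to 53.2), and Pdk1 in 38.2% and 42.7%. Slc2a1 was found in 25.1% of WT cells and 25.6% of KO cells. Zp3, a gene that blood cells should lack, was found in 43.2% of WT cells and 6.41% of KO cells at the same depth. The WT shares of Hif1a, Slc2a1 and Pdk1 lie below that of Zp3 and are not read as shares of expressing cells. Before thinning, the Hif1a shares were 30.1% and 29.5%, those of Slc2a1 37.1% and 34.2%, and those of Pdk1 54.1% and 54.7%.

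The spread over cells was alike in the pools. Summed over the 9 genes, a WT cell held from 791 to 6470 CPM, with a median of 3443 and quartiles of 2692 and 4169. In KO cells the range was 408 to 6144 CPM, the median 3426, and the quartiles 2690 and 4155. WT oocyte-transcript cells were lower, with a median of 2895 CPM in 68 cells against 3479 CPM in the other 191. Across cells the summed level had a Spearman correlation of 0.05 with UMIs per cell in WT and 0.03 in KO. With the summed oocyte genes it was -0.23 in WT and 0.05 in KO, and with 20 G2 and mitosis genes -0.09 and 0.07. Cells of a pool share libraries, so these values are descriptions.

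**Figure D3:**
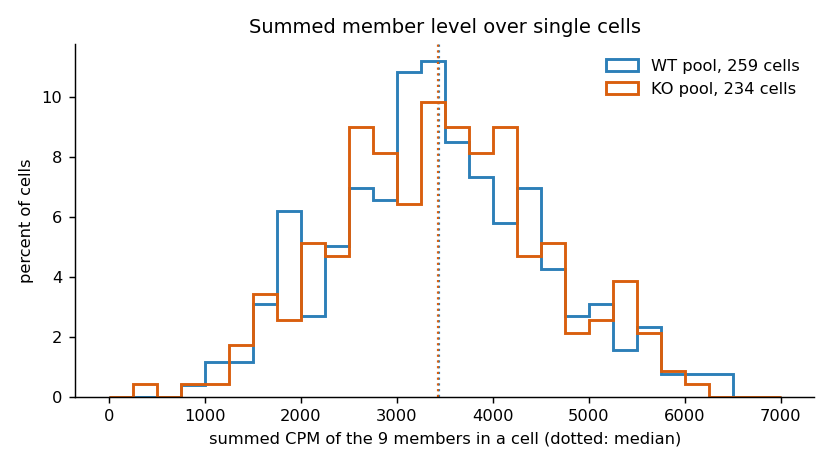
Percent of cells by the summed CPM of the 9 genes in a cell, in steps of 250 CPM, for 259 WT cells (blue) and 234 KO cells (orange). Dotted lines mark the medians of 3443 and 3426 CPM, which nearly coincide, and the outlines overlap over most of their range.

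Correlations between the genes from cell to cell were weak. Over the 36 pairs of the 9 genes, Spearman's rho had a median of 0.05 in WT (from -0.10 to 0.19) and 0.04 in KO (from -0.19 to 0.20). At equal depth the variance of the UMIs over cells divided by their mean was 6.94 in WT and 6.92 in KO for Gapdh, 7.12 and 5.61 for Ldha, 4.63 and 4.81 for Hif1a, and 3.44 and 5.17 for Pdk1. A value of 1 is that of pure counting, so each of these genes varied more than counting alone gives. The genes whose level over cells was most like the summed level were Ppia (Pearson r 0.32 in WT, 0.26 in KO), Hprt (0.34, 0.23), Mcm3 (0.23, 0.26), Mif (0.27, 0.23) and Rack1 (0.23, 0.25), out of 7545 genes that averaged 1 UMI or more per cell. These correlations are weak in sparse counts and share each cell's depth.

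A wide difference lay in the paralog of Ldha. Ldhb encodes the lactate dehydrogenase subunit that favours the reverse reaction, from lactate to pyruvate. It had 14681 UMIs in WT (684 CPM) and 3126 in KO (193 CPM), a log2 ratio of -1.82 (-1.88 to -1.77). Ldha made 55.2% of the Ldha and Ldhb UMIs in the WT pool (54.7 to 55.8) and 80.3% in the KO pool (79.7 to 80.9). Oocyte-transcript cells moved with this result: they held 73.2% of the WT Ldhb UMIs, with Ldhb at 1940 CPM in them and 247 CPM in the other WT cells, and 1 WT cell held 1721 Ldhb UMIs. In them Ldha made 27.6% of the pair (26.8 to 28.3). Without them the Ldhb ratio was -0.36 (-0.42 to -0.29), and the Ldha share was 78.1% in WT (77.5 to 78.7) and 80.3% in KO (79.7 to 80.9). The remaining cells still held more oocyte transcripts in WT, 250 CPM against 128 CPM in KO. The run of WT cells numbered from 225 on held 75.7% of the WT Ldhb UMIs, and without it the Ldhb ratio was also -0.36 (-0.43 to -0.29). At equal depth an Ldhb UMI was found in 85.7% of WT and 62.8% of KO cells.

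**Figure D4:**
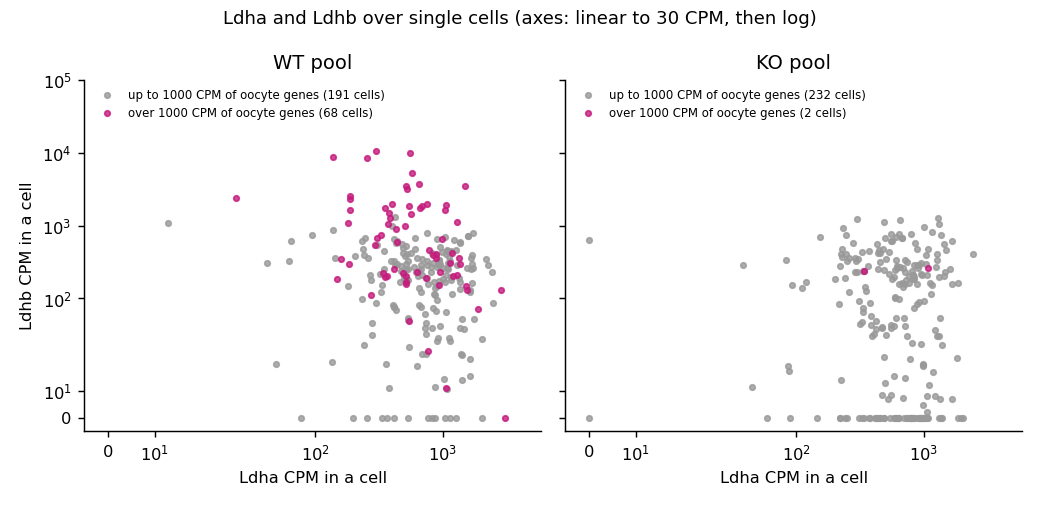
Ldha (horizontal) and Ldhb (vertical) in CPM in single cells of the WT pool (left) and the KO pool (right), on axes that are linear up to 30 CPM and logarithmic beyond. Pink points are cells with over 1000 CPM of oocyte genes, 68 in WT and 2 in KO, and grey points are the other 191 and 232 cells. The cells with the highest Ldhb are pink points of the WT pool, while Ldha covers a like range in both pools.

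Other gene families were compared by the same kind of share. Pfkl gave 52.8% of the UMIs of Pfkl, Pfkm and Pfkp in WT (50.9 to 54.6) and 53.9% in KO (51.6 to 56.3). Aldoa gave 96.1% of Aldoa and Aldoc in WT and 96.7% in KO. Pdk1 gave 31.8% of Pdk1, Pdk2 and Pdk3 in WT and 33.4% in KO, and Slc2a1 gave 38.2% and 41.2% of Slc2a1 and Slc2a3. Hif1a gave 84.7% of the UMIs of Hif1a and Epas1, which encodes HIF-2 alpha, in WT (82.0 to 87.1) and 99.9% in KO. Epas1 had 119 UMIs in 10 WT cells, 61 of them in 1 cell, and 1 UMI in 1 KO cell, so its KO over WT ratio as counted was 0.011 (0.00028 to 0.063 by counting error). With the KO count raised to 3, as in the ratios of other genes, it was 0.0335. At equal depth Epas1 was found in 1.54% of WT cells and 0.427% of KO cells, both below the share of Zp3.

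The pathway around these genes was described with 7 lists of 86 genes, of which 67 were in the table. Of the 67 genes, 8 were at least 1.5-fold higher and 8 at least 1.5-fold lower in KO, 16 of 67 in all. Among the 59 of them that averaged 0.5 UMI or more per cell, as the tested genes do, 7 were higher and 5 lower, which is 20.3% beside 28.1% of all genes tested. The 59 genes are few and were not matched for level, so no difference is read from these shares. The even split did not hold throughout: it was 4 higher and 10 lower in thinned cells, and 4 and 11 with the authors' normalized values averaged over cells. The median of the 67 genes was -0.04 on the log2 scale, and 0.01 without oocyte-transcript cells. The counts there were also 8 and 8, but not of the same genes. Bpgm (log2 ratio 0.12 with all kept cells, 0.82 without those cells) and Pfkfb2 (0.50 and 0.69) joined the higher genes, and Slc16a3 and Tfrc left them. Mxi1 (-0.47 and -0.70) joined the lower genes, and Ldhb left them. Among the 16 genes past 1.5-fold with all kept cells, 3 higher genes (Cited2, Egln3 and Pgam1) and 1 lower gene (Epas1) stayed past 1.5-fold in each of the 10 alternatives on the ratio scale.

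Of the other glycolytic enzymes, 13 of 21 were in the table, 1 was higher and 3 were lower, and the median was -0.05. Pgam1, the phosphoglycerate mutase that acts between Pgk1 and enolase, was the higher one, with 258 CPM in WT and 476 CPM in KO, a log2 ratio of 0.88 (0.83 to 0.93) that was 0.82 without oocyte-transcript cells. The lower ones were Ldhb, the muscle phosphofructokinase Pfkm (29.1 and 18.9 CPM, log2 ratio -0.62) and the muscle enolase Eno3 (10.8 and 5.62 CPM, log2 ratio -0.95). The Pfkm ratio was -0.33 (-0.72 to 0.06) in thinned cells and -0.67 without oocyte-transcript cells. Eno3 had UMIs in 24 WT and 11 KO cells. The Eno3 ratio was -0.54 without its top cell, and it turned to 0.19 without the WT cells numbered from 225 on. Pkm, the pyruvate kinase at the end of the pathway, stayed inside 1.5-fold, with 678 and 920 CPM and a log2 ratio of 0.44 (0.41 to 0.47). The 3′ counts do not separate its M1 and M2 forms.

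Of 8 other transporters of glucose and lactate, 6 were in the table, with 1 higher, 1 lower and a median of 0.01. The lactate transporter Slc16a1 was lower in KO (19.6 and 12.3 CPM, log2 ratio -0.67), and Slc16a3, which exports lactate from glycolytic cells, was higher (4.70 and 7.97 CPM, log2 ratio 0.76). The Slc16a1 ratio was -0.52 with normalized values and -0.99 in thinned cells. The Slc16a3 ratio rested on 1 KO cell with 52 UMIs and was 0.05 without the top cell. Of 5 regulators of phosphofructokinase, 4 were in the table, with a median of 0.54 that fell to 0.01 in thinned cells and -0.10 with normalized values. Pfkfb2 turned from 0.50 to -0.48 in thinned cells. Pfkfb3, which makes the activator fructose-2,6-bisphosphate, was past the fold, at 8.24 and 13.3 CPM, a log2 ratio of 0.69 (0.40 to 0.98). In thinned cells that ratio was 0.52, inside the fold.

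Of 13 genes of pyruvate entry into mitochondria, 11 were in the table, and 1 was higher: Pdp2, a phosphatase that reverses the action of Pdk1, had 26.8 CPM in WT and 49.0 CPM in KO (log2 ratio 0.87), and 0.39 in thinned cells. The median of the list was 0.04. All 7 genes of the pentose phosphate pathway were in the table, with a median of -0.07. Only Rpia was past the fold among them, lower in KO at -0.87, and it was at -0.05 in thinned cells. Taldo1, the transaldolase, was at 312 and 459 CPM with a log2 ratio of 0.56, inside the fold.

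Of 14 partners and regulators of HIF-1 alpha, 13 were in the table, with 3 higher, 1 lower and a median of -0.07. Both prolyl hydroxylase genes known to be induced by hypoxia were among the higher ones. Egln1 had 6.29 CPM in WT and 13.5 CPM in KO, a log2 ratio of 1.11 (0.79 to 1.43), with 73 of the KO UMIs in 1 cell and a ratio of 0.56 without the top cell. Egln3 had 6.47 and 13.7 CPM, a log2 ratio of 1.08 (0.76 to 1.39). Each was found in few cells, Egln1 in 34 WT and 24 KO cells and Egln3 in 25 of each. Cited2, which competes with HIF-1 alpha for the coactivators CBP and p300, had more UMIs. It stood at 95.8 CPM in WT and 172 CPM in KO, a log2 ratio of 0.85 (0.76 to 0.93), and a UMI of it was found in 51.7% of WT and 71.4% of KO cells at equal depth. Arnt was at 11.5 and 15.6 CPM, and Vhl at 13.6 and 13.5 CPM.

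Of 18 other genes known to be induced by hypoxia, 13 were in the table, with 1 higher, 2 lower and a median of -0.04. The higher gene, the transferrin receptor Tfrc, lay at the limit with a log2 ratio of 0.59. The histone demethylase Kdm3a was lower (26.4 and 16.6 CPM, log2 ratio -0.67), as was the repressor Bhlhe40 (log2 ratio -1.08), whose ratio was -0.30 without a WT cell that held 50 of its 118 WT UMIs. The Kdm3a ratio was -0.49 without its top cell and -0.88 in thinned cells. Bnip3, which takes part in mitochondrial autophagy, was at 38.7 CPM in WT and 37.7 CPM in KO, but its log2 ratio was 0.49 (0.19 to 0.79) in thinned cells. Its relative Bnip3l was at 218 and 229 CPM, with a log2 ratio of 0.04 (-0.09 to 0.16) in thinned cells. The carbonic anhydrase Car9 was at 17.8 and 17.4 CPM, and at 0.42 (-0.02 to 0.86) on the log2 scale in thinned cells. The 20 G2 and mitosis genes, which mark dividing cells, moved at the same time: 13 were at least 1.5-fold lower in KO, and their sum was 1554 CPM in WT and 966 CPM in KO. Of their counting intervals, 16 lay below 1 and 2 above, those of Top2a (log2 ratio 0.43) and Tpx2 (0.41). Mki67 was at -0.06. Without oocyte-transcript cells 12 of the 20 were at least 1.5-fold lower, and the sums were 1330 and 969 CPM. The part of the mitosis genes in the results above was not tested.

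**Figure D5:**
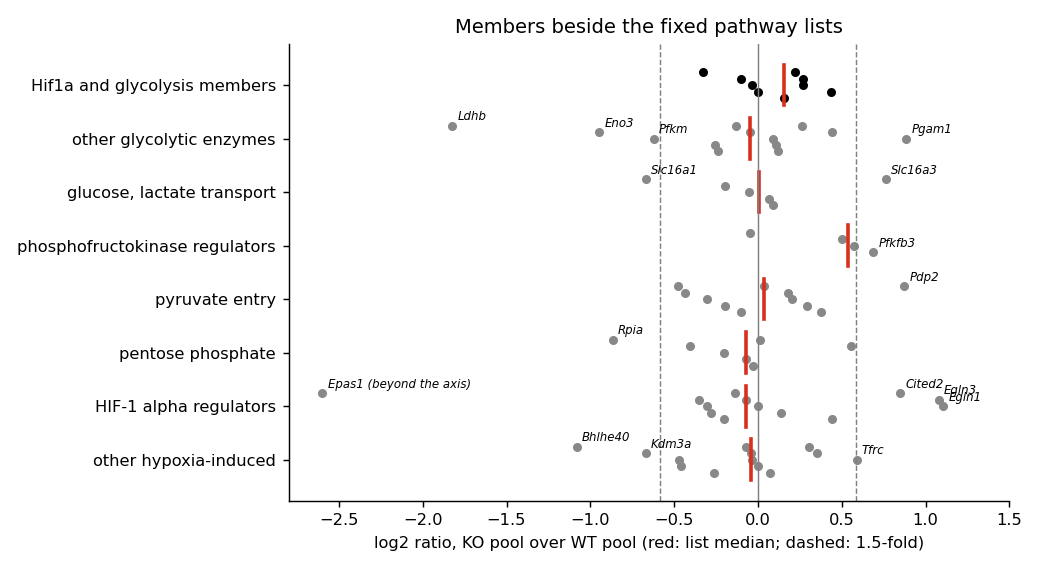
Log2 ratio of the KO pool over the WT pool for each gene in the table, by list, with the 9 Hif1a and glycolysis genes in black and the 67 pathway genes in grey. Red bars mark list medians, dashed lines mark 1.5-fold, names mark genes past it, and Epas1 is drawn at the left edge because its value lies beyond the axis. No black point lies past the dashed lines, while 8 grey points lie past each side.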

How the data were processed

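The authors aligned the reads to the mm9 mouse transcripts, collapsed them by UMI, left out poor cells and genes with a low mean count, and deposited log2 values of the normalized count plus 1; the aligner and the normalization method are not given in the sources used here. UMI counts were recovered by dividing each cell's unlogged values by the smallest value above 0; with a tolerance of 0.01 of a count, 100% were whole. Cells were kept at 2000 genes and 20000 UMIs, summed by genotype label and scaled to CPM. Ratios have Clopper-Pearson and levels Poisson 95% intervals, with pooled counts under 3 raised to 3. Column names do not give the library, so no test was possible, and a fold of 1.5 stands in for a call. No doublet caller was run on the hand-picked cells.

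Members and lists were chosen with earlier results of these data known. Genes that could be named were Med23, the members, the pathway genes in the table with at least 100 UMIs or past the fold, and the 5 genes with the highest mean correlation with the summed members on the scale log2(CPM/100 + 1). Not every pathway gene that met this rule was named. Eno1b, Zp3 and the remaining oocyte, cell type and mitosis genes served as checks. Alternatives changed the cell filter, cell weighting, scaling, top cells, oocyte-transcript cells, thinning depth and fold; Ldha shares under alternatives, and leaving out the WT cells numbered from 225 on (the split with the largest difference in oocyte-transcript cells), were added after seeing the data. Thinning used a fixed seed. The calculation was tested on simulated data. Python 3.11.15, NumPy 2.4.6, pandas 2.3.3, SciPy 1.17.1 and matplotlib 3.10.9 were used.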

Additional observations from a re-analysis of the deposited data

How the results depend on the processing

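No member passed 1.5-fold or 2-fold in either direction under any alternative run. Of 99 member values under 11 alternatives, 65 stayed within the counting interval of the reported ratio and 34 left it, 30 of these downward. For 1 of the 11 alternatives the value was a difference of mean log values, which is not on the scale of that interval. The median log2 ratio of the members, 0.16, became -0.011 in thinned cells, 0.029 with the authors' normalized values averaged over cells, 0.017 as a difference of mean log values, 0.045 without oocyte-transcript cells and -0.038 without the WT cells numbered from 225 on. The log2 ratio of the summed members, 0.02, became -0.0054 in thinned cells, 0.0043 with normalized values, -0.0050 with median-of-ratios, 0.0018 with upper-quartile and -0.0063 with TMM scaling, -0.027 without oocyte-transcript cells and -0.054 without those WT cells. Those scalings shifted all genes by 0.02 to 0.03 on the log2 scale. Of the pathway genes, 8 higher became 4 in thinned cells, 4 with normalized values and 2 at 2-fold, and 8 lower became 10, 11 and 3 in the same settings and 4 once each gene's top cell was left out. The Ldha share of lactate dehydrogenase UMIs in WT, 55.2%, was 54.4% with at least 3000 genes and 30000 UMIs, 57.7% in thinned cells, 58.1% without top cells 78.1% without oocyte-transcript cells and 78.0% without the WT cells numbered from 225 on; in KO, 80.3%, it was 81.5%, 78.1% and 79.3% under the first 3 of these. The log2 ratio of Slc16a3, 0.76, turned to -0.16 in thinned cells, and that of Eno3, -0.95, to 0.19 without those WT cells. Of 77 medians of pathway lists, 10 moved beyond the median lower or upper bound of their genes' counting intervals, 9 downward. Those bounds are not a counting interval of the median itself. The cause was not tested. No paired analysis was possible because no column names its library or batch, so leaving out each library and the replicate block were not run. Counting error alone is covered by every interval, and genes under 10 CPM rest on few cells.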
